A study of Mus musculus with 6 samples.

Results

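The miRNAs embedded in the Hox gene clusters were examined in small RNA libraries of the mouse prefrontal cortex. They were chosen by name as mmu-miR-10a-5p, mmu-miR-10b-5p, mmu-miR-196a-5p, mmu-miR-196b-5p and mmu-miR-615-3p, without a threshold on any measured value, though with earlier results of these data known. Of these 5 miRNAs, 4 were present among the 1189 entries of the data, and mmu-miR-196b-5p was not listed and was not analysed here. The PND group held 3 mice that had been anesthetized with 1.5% isoflurane for 30 min and then operated on by exploratory laparotomy for 30 min under the same anesthetic. The CON group held 3 mice that received neither of these, so the effects of isoflurane and of surgery cannot be told apart in this design. The tissue was taken once the behavioural tests after the operation were complete, and for this all mice were put under isoflurane before perfusion with saline, per the study's methods. All 6 were wild type C57BL/6 males aged 18 months, although the sample names carry 17 months, and each mouse gave 1 library.

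Hox genes encode transcription factors that set position along the head-to-tail axis of the embryo. They lie in 4 clusters, and genes at one end of a cluster are used in the hindbrain while those toward the other end are used in the spinal cord and trunk. The forebrain, from which the cortex arises, lies in front of the Hox expression domains. The miRNAs inside the clusters tend to be expressed along with the neighbouring Hox genes and are known to repress Hox transcripts in turn, such as Hoxb8 by miR-196. A miRNA recognizes its targets mainly through its seed, bases 2 to 8 of the mature strand.

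The mature sequences are shown because the members fall into 3 seed groups and because the paralogues of a group are almost identical. They were taken from RefSeq (GRCm38.p6), are written 5′ to 3′, and have the seed in capitals.
miR-10a-5p: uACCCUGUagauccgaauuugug
miR-10b-5p: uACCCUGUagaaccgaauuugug
miR-196a-5p: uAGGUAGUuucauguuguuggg
miR-196b-5p: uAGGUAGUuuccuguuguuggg
miR-615-3p: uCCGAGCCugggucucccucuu

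miR-10a-5p and miR-10b-5p are 23 bases long, share the seed ACCCUGU and differ only by U12A, with positions counted from 1 at the 5′ end and the miR-10a-5p base given first. miR-196a-5p and miR-196b-5p are 22 bases long, share the seed AGGUAGU and differ only by A12C, with the miR-196a-5p base first. The number of mismatches allowed in the alignment is not given in the sources used here, so reads of one paralogue could have been assigned to the other, and this was not tested. miR-615-3p has a seed of its own. Among the 997 listed entries that matched a RefSeq mature sequence by name, 2 carried the miR-10 seed, 1 carried the miR-196 seed and 1 carried the seed of miR-615-3p, and these were the members themselves.

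The positions of the hairpin genes in GENCODE release M21 (GRCm38) placed every member inside a Hox cluster. Mir10a, at chr11:96317165-96317274 on the plus strand, lies outside annotated genes, 992 bases from Hoxb4 and 11043 bases from Hoxb5. Mir10b, at chr2:74726070-74726137 on the plus strand, lies in introns of Hoxd3 and Hoxd4. Mir615, at chr15:103014910-103015001 on the plus strand, lies in an intron of Hoxc5. The mature miR-196a-5p is encoded by 2 hairpins, so its reads cannot be split between them. Mir196a-1, at chr11:96265164-96265265 on the plus strand, lies outside annotated genes, 6191 bases from Hoxb9. Mir196a-2, at chr15:102973350-102973434 on the plus strand, lies in an intron of the longest Hoxc5 transcripts, between Hoxc10 and Hoxc9. Mir196b, at chr6:52230081-52230165 on the minus strand, overlaps an annotated exon of Hoxa9. The 4 clusters held 1 more gene annotated as a miRNA, Gm44463 in the Hoxd cluster, which was not analysed here.

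The deposited values are CPM, the reads of a miRNA per 1000000 miRNA reads of the library. Every value was a whole multiple of the value of 1 read, from which the reads behind each value were recovered. The libraries held between 17600785 and 19471251 reads in PND and between 14849471 and 16093488 reads in CON. Every PND library was thus deeper than every CON library. The floor of detection was set at 3 reads, or between 0.154 and 0.170 CPM in PND and between 0.186 and 0.202 CPM in CON. This floor and the intervals below cover counting error only. The listed entries fell short of the library total by between 8 and 27 reads, and the miRNAs to which these reads belong were not analysed. The 4 markers of brain neurons had a summed level of 284021 to 318352 CPM in PND and of 310165 to 374598 CPM in CON. Markers of other cell types are given further below, whether or not they moved with a member.

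miR-10a-5p was the most abundant of the members in every mouse. In PND its level was 39.7, 39.7 and 30.0 CPM (773, 698 and 531 reads). In CON its level was 43.1, 22.7 and 29.5 CPM (659, 337 and 474 reads). The CON values lay on both sides of the PND values, with the highest level in CON mouse 1 and the lowest in CON mouse 2.

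miR-10b-5p, its paralogue from the Hoxd cluster, was lower and steadier. In PND its level was 20.9, 16.3 and 18.9 CPM (407, 287 and 335 reads). In CON its level was 14.7, 19.3 and 14.1 CPM (224, 287 and 227 reads). CON mouse 2 lay above 2 of the 3 PND mice, and the groups overlapped.

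miR-615-3p, from the Hoxc cluster, was near the detection floor. Its PND libraries held 8, 9 and 5 reads, a level of 0.411, 0.511 and 0.282 CPM. Its CON libraries held 2, 8 and 15 reads, a level of 0.131, 0.539 and 0.932 CPM. The lowest and the highest value were both in the CON group, and CON mouse 1 was under the floor. Over all 6 libraries its 47 reads gave 0.465 CPM, with an exact Poisson 95% interval of 0.342 to 0.619 CPM.

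miR-196a-5p, the listed member from the most posterior positions of the clusters, had 2 reads in all 6 libraries together. Both were in CON mice, 1 read in CON mouse 1 and 1 read in CON mouse 3, and no library reached the floor. The PND mice had 0 reads of 54784281, where the floor of 3 reads is 0.0548 CPM and the exact Poisson 95% upper limit is 0.0673 CPM. Over all 101002715 reads the level was 0.0198 CPM, with an exact Poisson 95% interval of 0.00240 to 0.0715 CPM. A difference between the groups was therefore not detectable at this depth, and no fold change is given.

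**Figure D1:**
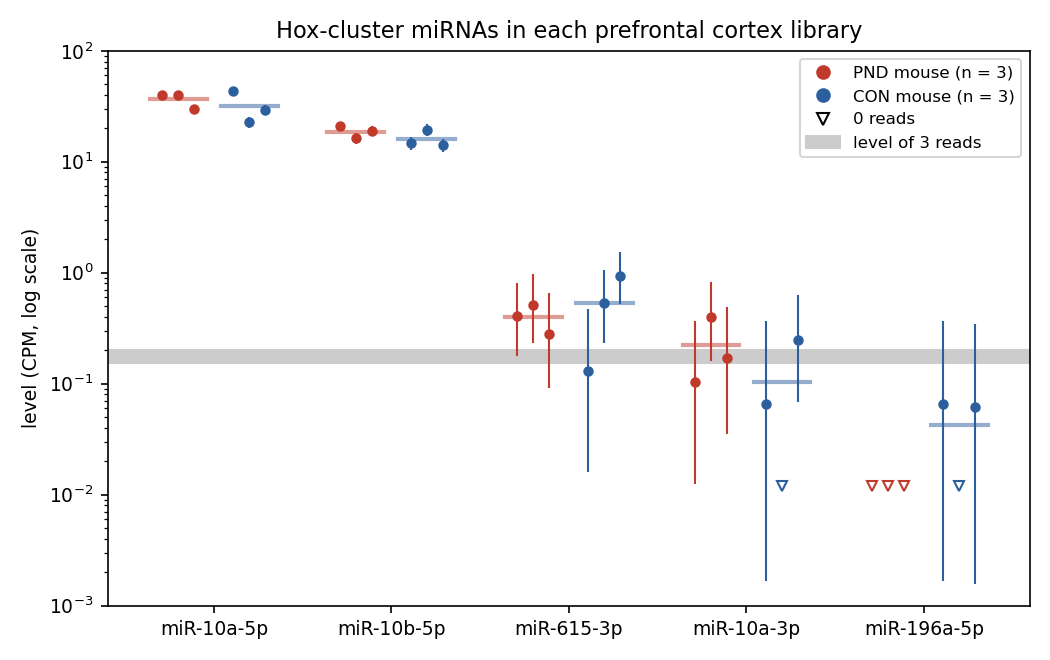
Level of each listed Hox-cluster miRNA arm in each mouse, in CPM on a log scale; points are mice with exact Poisson 95% intervals, short bars are group means, open triangles mark 0 reads (drawn at an arbitrary height), and the grey band is the level of 3 reads (0.154 to 0.202 CPM). The miR-10 pair lies between 14.1 and 43.1 CPM in all 6 mice. The points of miR-615-3p lie above the band in 5 mice, from 0.282 to 0.932 CPM, and below it in CON mouse 1. Those of miR-10a-3p lie on both sides of the band, and those of miR-196a-5p lie below it.

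By listed value, the order of the levels was miR-10a-5p, miR-10b-5p, miR-615-3p and miR-196a-5p in all 6 mice. Each neighbouring pair in this order was compared within mice on log2(CPM + 1). Since a read spans a whole miRNA of 22 or 23 bases, levels were compared without a division by length, and the unequal efficiency with which miRNAs enter a library was not measured. miR-10a-5p exceeded miR-10b-5p by 0.92 ± 0.45 (SD, n = 6 mice) on this log2 scale, and the ratio of their levels ran from 1.17 in CON mouse 2 to 2.94 in CON mouse 1. miR-10b-5p exceeded miR-615-3p by 3.65 ± 0.37 (SD, n = 6), with a ratio of the levels between 15.1 and 112. miR-615-3p exceeded miR-196a-5p by 0.50 ± 0.26 (SD, n = 6). Both levels lay under 1 CPM in every mouse, where adding 1 compresses the difference, and their means were 0.468 and 0.0213 CPM. The ratio of the levels, defined only in the mice with a read of miR-196a-5p, was 2.00 in CON mouse 1 and 15.0 in CON mouse 3. These differences describe the order and carry no test, since the pairs were formed from it. In CON mouse 1 the last step rested on 2 reads against 1, both under the floor, so that miR-615-3p and miR-196a-5p cannot be ordered in that mouse.

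The levels were then set against depth. By mean level over the 6 mice, miR-10a-5p ranked 256 and miR-10b-5p ranked 310 of 1189 entries, so that 78.5% and 73.9% of the entries were lower. miR-615-3p ranked 661, with 44.4% of the entries lower, and miR-196a-5p ranked 1135, with 4.29% lower. At the mean levels measured, 3 reads would be expected from 87966 miRNA reads for miR-10a-5p and from 172714 for miR-10b-5p. The same number would need 6414369 reads for miR-615-3p and 141074731 for miR-196a-5p, more than the 6 libraries held together. At the depth of the shallowest library, miR-615-3p would be expected to reach 3 reads in 5 of the 6 mice, as it did at the depth of each library.

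**Figure D2:**
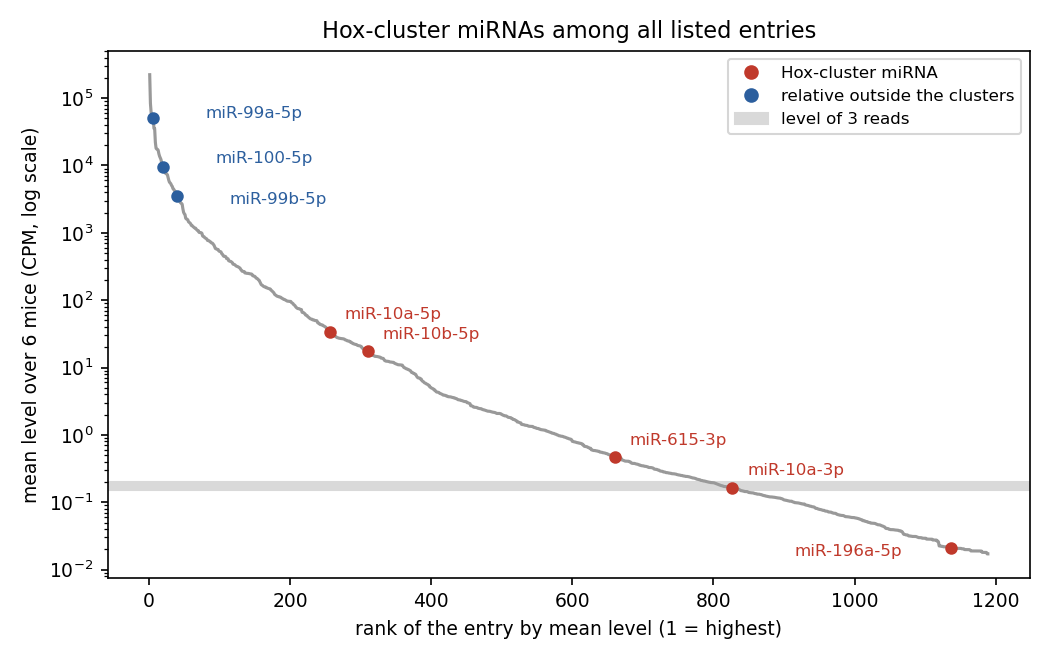
Mean level over the 6 mice of all 1189 entries, in CPM on a log scale, against their rank; red points are Hox-cluster miRNA arms, blue points are the relatives miR-99a-5p, miR-99b-5p and miR-100-5p, and the grey band is the level of 3 reads. The miR-10 pair ranks 256 and 310, miR-615-3p ranks 661 and miR-196a-5p ranks 1135, whereas the relatives rank 6, 40 and 20.

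Markers of tissues outside the brain give a scale for these levels. Of the 7 fixed for this purpose, 6 were listed. miR-122-5p, the main miRNA of liver, averaged 12.6 CPM, and miR-375-3p, a miRNA of pancreatic islets, averaged 26.8 CPM. miR-133a-3p and miR-206-3p of skeletal muscle averaged 14.3 and 4.14 CPM, and miR-208b-3p of heart muscle averaged 0.0532 CPM. miR-1a-3p, the leading entry of this list, averaged 524 CPM. By mean level, miR-10a-5p was higher than 5 of these 6 markers and miR-10b-5p was higher than 4. The whole list summed to between 548 and 641 CPM in PND and between 458 and 628 CPM in CON.

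The opposite arms of the same hairpins were searched as well. Of 6 opposite arms, only miR-10a-3p was listed. Its reads numbered 2, 7 and 3 in PND and 1, 0 and 4 in CON, and it reached the floor in 3 of the 6 libraries. It made up 0.487% of the reads of the Mir10a hairpin (exact binomial 95% interval 0.284% to 0.779%), so that the 5′ arm held nearly all reads of this hairpin.

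The miR-10 family has relatives outside the Hox clusters. miR-99a-5p, miR-99b-5p and miR-100-5p descend from the same ancestral miRNA and are shown because they share most of their bases with the miR-10 pair, while the seed differs.
miR-99a-5p: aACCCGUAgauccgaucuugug
miR-99b-5p: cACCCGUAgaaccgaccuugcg
miR-100-5p: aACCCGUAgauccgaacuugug

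With miR-10a-5p shifted by 1 base, it matched miR-100-5p with 3 mismatches over 22 aligned bases and miR-99a-5p with 4. miR-10b-5p matched miR-100-5p with 4 mismatches, miR-99a-5p with 5 and miR-99b-5p with 6. The longest stretch shared with miR-100-5p was 11 bases in miR-10a-5p and 5 bases in miR-10b-5p, whereas miR-10b-5p shared 10 bases with miR-99b-5p. Each of the paralogues thus had a closest relative of its own, miR-100-5p for miR-10a-5p by this measure and miR-99b-5p for miR-10b-5p, although miR-10b-5p had its fewest mismatches with miR-100-5p.

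These relatives were among the most abundant miRNAs of the cortex. miR-99a-5p had 51139.8 ± 1029 CPM, miR-100-5p had 9478 ± 520 CPM and miR-99b-5p had 3517 ± 326 CPM (SD, n = 6 mice). Together they held between 1071 and 1517 times the level of the miR-10 pair, which made up between 0.0659% and 0.0933% of the reads of these 5 miRNAs. Whether a small part of the reads of the relatives was assigned to the miR-10 pair was not tested.

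The seed of miR-196 has a counterpart of this kind. The letters AGGUAGU, bases 2 to 8 of miR-196a-5p, also occur at bases 3 to 9 of 9 listed entries, which include let-7a-5p and miR-98-5p. These 9 entries averaged 205107 CPM in sum, beside the 2 reads of miR-196a-5p.

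The comparison of PND with CON asked whether anesthesia and surgery changed the miRNAs of the prefrontal cortex. None of the 3 members above the floor passed a limit of this test. The mean level of miR-10a-5p was 36.4 ± 5.60 CPM in PND and 31.8 ± 10.4 CPM in CON (SD, n = 3 mice each). Its log2 fold change was 0.23 on the log2(CPM + 1) scale (standard error 0.24, 95% interval -0.33 to 0.79, limma), with an adjusted p of 0.768. The interval reached from 0.796-fold to 1.73-fold. CPM values overlapped between the groups, with a two-sided p of 0.6 in an exact permutation test, for which 3 mice against 3 allow no p under 0.1.

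The mean level of miR-10b-5p was 18.7 ± 2.31 CPM in PND and 16.03 ± 2.87 CPM in CON (SD, n = 3 mice each). Its log2 fold change was 0.22 (standard error 0.17, 95% interval -0.19 to 0.62, adjusted p = 0.768 from limma), and the interval reached from 0.878-fold to 1.54-fold. The groups overlapped, and a two-sided exact permutation test, which cannot go below 0.1 here, gave p = 0.3.

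The mean level of miR-615-3p was 0.401 ± 0.115 CPM in PND and 0.534 ± 0.401 CPM in CON (SD, n = 3 mice each). Its log2 fold change was -0.10 on the log2(CPM + 1) scale (standard error 0.19, adjusted p = 0.903 from limma), which understates changes at such low levels. The log2 ratio of the mean CPM was -0.41. A two-sided exact permutation test gave p = 0.7, and the PND values lay inside the range of the CON values. Leaving out CON mouse 3 gave a log2 fold change of 0.084, so the direction rested on that mouse.

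Of all 1189 entries tested, 61 (5.13%) had an unadjusted p under 0.05 in limma. A single entry (0.0841%) also changed more than 2-fold on the log2(CPM + 1) scale, and 5 entries (0.421%) had an adjusted p under 0.05. The study used the same numeric limits, but with p-values from edgeR and fold changes from TPM, and reported more miRNAs past them. Past both limits here were 22 entries with a pseudocount of 0.1, 21 in edgeR's quasi-likelihood test and 31 in its exact test. Of the 3 members above the floor, 0 had an unadjusted p under 0.05 in limma or in any other test or setting in which they were tested, and 0 had an adjusted p under 0.05. PND and CON values lay fully apart for 118 entries (9.92%) and for 0 of the 3 members. The median log2 fold change was 0.22 over the 3 members, with 2 higher and 1 lower in PND, and 0.052 over all entries. It was 0.14 over the 361 entries that averaged 10 CPM or more, the class to which the miR-10 pair belongs.

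This general offset depended on scaling. With TMM factors the median of the 361 entries moved by -0.12 and with DESeq2 size factors by -0.15, on the log2 scale. The log2 fold change of miR-10a-5p was then 0.11 and 0.082, and that of miR-10b-5p was 0.10 and 0.072. Of the entries with an unadjusted p under 0.05, 78.7% were higher in PND as deposited, 65.4% with TMM factors and 59.6% with DESeq2 size factors.

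**Figure D3:**
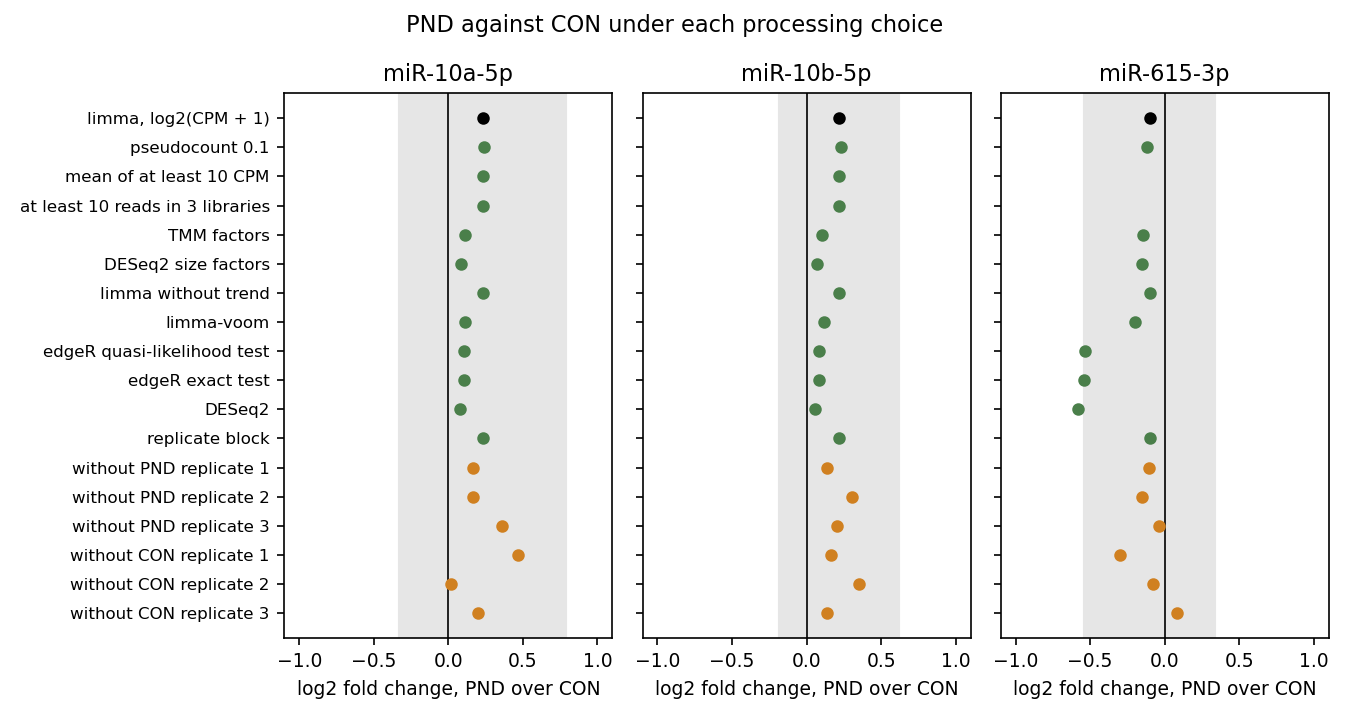
Log2 fold change of PND over CON for miR-10a-5p, miR-10b-5p and miR-615-3p (panels) under each processing choice (rows); black is limma on log2(CPM + 1), with its 95% interval as the grey band, green points are other tests, filters and scalings, and orange points leave out 1 mouse. All points of the miR-10 pair lie above 0, from 0.019 to 0.47 for miR-10a-5p and from 0.054 to 0.35 for miR-10b-5p, and miR-615-3p crosses 0 without CON mouse 3.

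The size of these differences changed when single CON mice were left out. The log2 fold change of miR-10a-5p was 0.47 without CON mouse 1 (limma, unadjusted p = 0.0592, adjusted p = 0.57) and 0.019 when CON mouse 2 was left out. For miR-10b-5p it was 0.16 without CON mouse 1 and 0.35 without CON mouse 2 (unadjusted p = 0.0518, adjusted p = 0.916 from limma). These mice stood apart in other miRNAs too. The 5 epithelial markers of the miR-200 family summed to 861 CPM in CON mouse 1 and to between 27.3 and 36.7 CPM in the other 5 mice. The 4 markers of brain neurons, a sum led by miR-128-3p, reached 374598 CPM in CON mouse 2, above all other mice. The TMM factor of that mouse was 0.860 against 0.992 to 1.07 in the others. The part of these differences in the miR-10 values was not tested.

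The relatives outside the clusters gave narrow limits in the same test. The log2 fold change was -0.0045 for miR-99a-5p (95% interval -0.17 to 0.16), -0.057 for miR-99b-5p (-0.33 to 0.21) and 0.080 for miR-100-5p (-0.12 to 0.28), with adjusted p-values of 0.984, 0.918 and 0.768 from limma. As for the members, 0 of 3 passed and the groups overlapped for all 3.

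The balance of the miR-10 paralogues was compared within libraries, where scaling has no effect. The share of miR-10b-5p in the reads of the pair was 34.5%, 29.1% and 38.7% in PND and 25.4%, 46.0% and 32.4% in CON. The extreme shares were both in CON mice, and their exact binomial 95% intervals, 22.5% to 28.4% in CON mouse 1 and 42.0% to 49.995% in CON mouse 2, lay far apart. The mean share was 34.1% ± 4.79 in PND and 34.6% ± 10.5 in CON (SD, n = 3 mice each), a difference of -0.48 percentage points with p = 1 in a two-sided exact permutation test. Leaving out PND mouse 2 made this difference 2.01, leaving out CON mouse 2 made it 5.23 and leaving out CON mouse 1 made it -5.08.

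**Figure D4:**
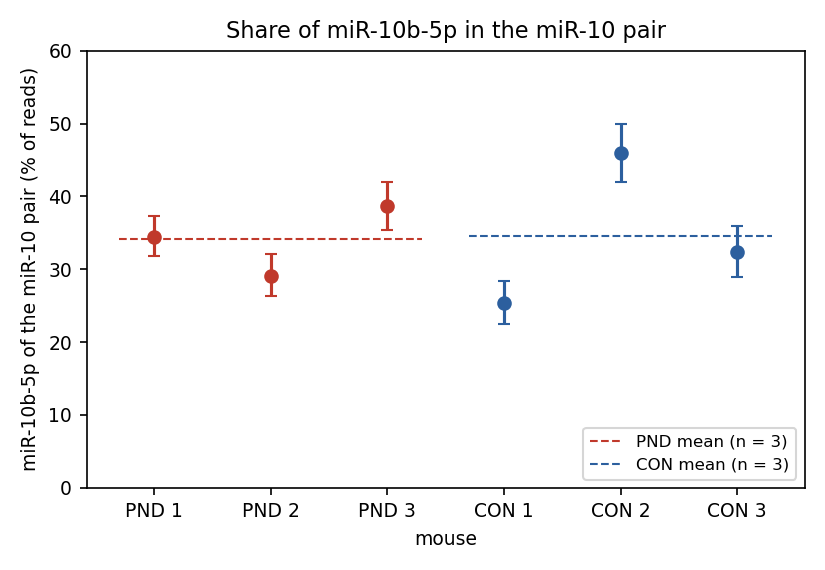
Share of miR-10b-5p in the reads of miR-10a-5p and miR-10b-5p together, in percent, for each mouse with exact binomial 95% intervals; dashed lines are the group means. The means are 34.1% and 34.6%, and the CON mice spread from 25.4% to 46.0%.

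The spread between mice, which holds animal, library and counting variation together, was set beside counting error. Within groups, the SD of miR-10a-5p was 24.5% of its mean, 5.87 times what counting reads alone would give, and that of miR-10b-5p was 14.98% of its mean, 2.56 times. For miR-615-3p the SD was 63.0% of the mean, 1.76 times the 35.9% that counting alone would give. Among the 168 entries with a mean between 10 and 100 CPM the median was 15.1% (quartiles 10.1% and 22.0%). miR-10a-5p was more variable than 81.5% of these entries and miR-10b-5p more than 46.4%. As a percent of the mean the relatives varied less, with 2.24% for miR-99a-5p, 5.14% for miR-100-5p and 10.04% for miR-99b-5p. Beside counting error their SD was larger than that of the members, at 20.7, 20.5 and 24.3 times in the same order. Their levels were far above those of the members.

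**Figure D5:**
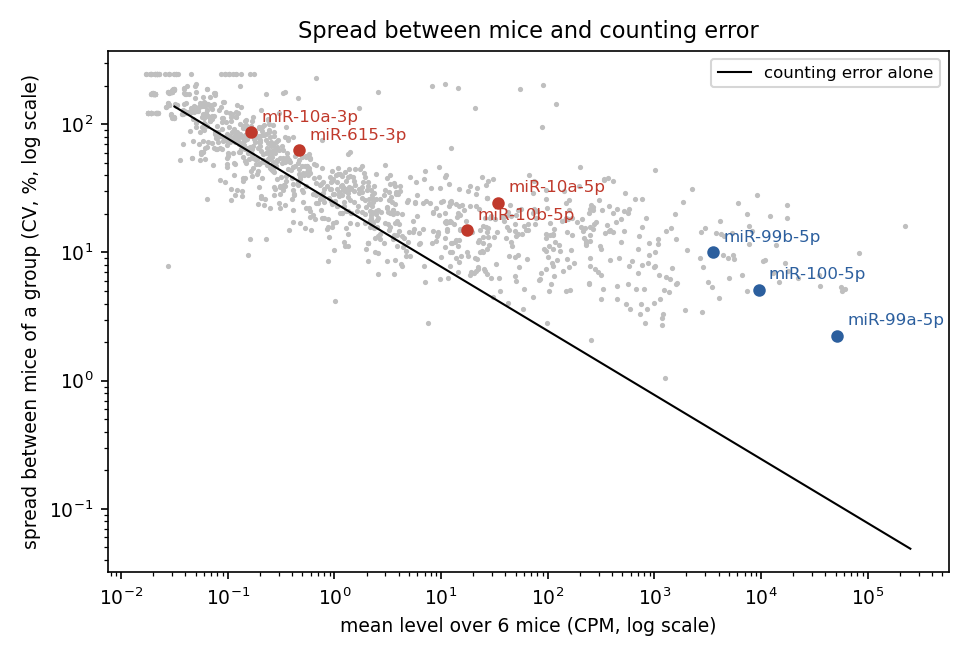
Spread between mice of a group (SD as a percent of the mean, log scale) against mean level (CPM, log scale) for all entries with a spread above 0. Red points are Hox-cluster miRNA arms, blue points are the relatives, and the line is counting error alone. The arm miR-196a-5p, with 2 reads in all, is not marked in red, and its SD was 0.708 times counting error. miR-10a-5p, at 24.5%, and miR-10b-5p, at 14.98%, lie above the line, and miR-615-3p and miR-10a-3p lie nearer to it but also above it.

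The paralogues did not follow each other across the 6 mice. The entries most like miR-10a-5p, among 359 named miRNAs that averaged 10 CPM or more, were miR-99b-3p (Pearson r of log2(CPM + 1) 0.984 over 6 libraries), miR-204-3p (0.965) and miR-433-3p (0.937), and 16 entries had an r above 0.9. For miR-10b-5p they were miR-128-1-5p (0.873), miR-3475-3p (0.796) and miR-212-5p (0.698), and 0 entries had an r above 0.9. Between miR-10a-5p and miR-10b-5p r was -0.237. These values describe 6 libraries that share their scaling, and carry no test.

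Markers of other cells moved with miR-10a-5p in part. The 4 markers of choroid plexus, led by miR-204-5p, were all listed and had a summed level of 786 to 817 CPM in PND and of 597 to 946 CPM in CON. Like miR-10a-5p, their sum, most of it miR-204-5p (mean 769 CPM), was highest in CON mouse 1 and lowest in CON mouse 2. Its r with miR-10a-5p over 6 libraries was 0.901, a description, and its part in the values of miR-10a-5p was not tested. In the same way r was 0.702 for the red blood cell list, 0.503 for epithelium, -0.505 for brain neurons and -0.524 for tissues outside the brain. For the remaining lists it lay between -0.034 and 0.300. With miR-10b-5p, r was -0.475 for choroid plexus, -0.473 for epithelium and 0.368 for red blood cells, also as a description. For the other lists r with miR-10b-5p lay between -0.232 and 0.349. The 2 endothelial markers summed to between 13326 and 13992 CPM in PND and between 11991 and 14372 CPM in CON. The 4 mural markers, which stand for smooth muscle cells and pericytes, summed to between 8780 and 9952 CPM in PND and between 6735.5 and 9725 CPM in CON, and were lowest in CON mouse 1, where miR-10a-5p was highest. The 6 markers of fibroblasts and meninges lay between 102 and 118 CPM in PND and between 87.9 and 105 CPM in CON. The 4 leukocyte markers lay between 299 and 331 CPM in PND and between 279 and 328 CPM in CON, and the 4 red blood cell markers between 47.1 and 101.1 CPM in PND and between 31.9 and 54.7 CPM in CON. In bulk tissue, fewer cells of a type and less of a miRNA per cell cannot be told apart.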

How the data were processed

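Small RNA of the prefrontal cortex was sequenced in 6 mice, 3 per group, drawn from groups of 13. For library preparation the study's methods give a NEBNext small RNA kit, but the labels a VAHTS total RNA kit. Groups were taken from the treatment labels and replicate numbers from the sample names. The authors deposited CPM values (named TPM in their methods) after filtering with fastx, alignment with Bowtie (0.12.2 in the submitters' processing notes), assignment by miRBase position and scaling to the library total. The study's methods also name TMM normalization before the conversion to TPM. No such factor was visible in the deposited values, which sum to 999998 or 999999 CPM per library. The submitters' notes name mm8 and mm9 without a role, the files hold no coordinates, and positions here are those of GRCm38. Dividing by the value of 1 read gave whole reads for 100% of the values (tolerance 0.05 reads).

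PND and CON were compared with limma 3.58.1 and its trend option (R 4.3.3) over all 1189 entries on a log2(CPM + 1) scale, with Benjamini-Hochberg adjustment over all of them. Python 3.11.15 and scipy 1.17.1 gave the exact permutation tests and intervals. Alternatives were 0.1 as the pseudocount, only entries averaging 10 CPM or with 10 reads in 3 libraries, TMM and DESeq2 size factors, limma without trend, a replicate block, each mouse left out, and limma-voom, edgeR 4.0.16 (quasi-likelihood and exact tests) and DESeq2 1.42.0 on the recovered reads. The fits were tested on simulated reads with 4-fold changes, at an unadjusted p under 0.05 and a fold change over 2. limma on log2(CPM + 1) called 84 of 197 changed entries, 53 of the 55 that averaged 10 CPM or more, and 16 of 979 unchanged ones. Nearly all changes it missed were in entries under 10 CPM, where miR-615-3p lies. The fits on recovered reads called between 121 (DESeq2) and 143 (limma-voom) of the 197. Of the 979 unchanged entries they called between 4 (DESeq2) and 26 (limma-voom). With a pseudocount of 0.1, limma called 130 of the 197 and 58 of the 979. The members, marker lists and tests were chosen with earlier results of these data known. The named miRNAs were the members, their opposite arms, the relatives miR-99a, miR-99b and miR-100, the leading or defining entries of the marker lists, and the 3 entries most correlated with each member above 10 CPM. The order of levels, the spread relative to counting error and the sequence comparisons were added after the data were seen. Mice were the replicates. No library was a copy of another. Sequences of 997 of the 1189 entries matched RefSeq by name.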

Additional observations from a re-analysis of the deposited data

How the results depend on the processing

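Across the alternatives (17 for each miR-10 member, 15 for miR-615-3p), the miR-10 pair kept its direction and no member passed the limits, with adjusted p-values between 0.57 and 1. With each mouse left out, the log2 fold change lay between 0.019 and 0.47 for miR-10a-5p, 0.14 and 0.35 for miR-10b-5p, and -0.30 and 0.084 for miR-615-3p (0.084 without CON mouse 3, the only change of direction of a member), and the difference in the miR-10b-5p share lay between -5.08 and 5.23 percentage points (2.01 without PND mouse 2 and 5.23 without CON mouse 2, against -0.48 in all mice). miR-615-3p ran from -0.58 (DESeq2) to -0.10 in the other alternatives, and could not be fitted under the minimum of 10 CPM or of 10 reads in 3 libraries, which it does not reach. With a floor of 10 reads it was detected in 1 library instead of 5. The number of entries with an unadjusted p under 0.05 fell from 61 to 5 with a mean of at least 10 CPM, 32 with at least 10 reads in 3 libraries and 28 in DESeq2, and lay between 31 and 91 with a mouse left out. Entries past both limits numbered 22 with a pseudocount of 0.1, 32 in limma-voom, 21 in edgeR's quasi-likelihood test, 31 in its exact test, 11 in DESeq2, 2 with the replicate block, 0 with the 10 CPM minimum and without trend, and 0 to 1 with a mouse left out. Entries with an adjusted p under 0.05 fell from 5 to 0 with either minimum, without trend and with the replicate block, and to between 0 and 3 with a mouse left out. Same-numbered mice had correlations of -0.128, 0.122 and 0.508 in their deviations over 361 entries, and different-numbered mice between -0.546 and 0.503. The ranges overlapped, and the numbers were not taken to pair the mice. With 3 mice per group these correlations depend on one another, so they cannot settle the pairing. The replicate block gave 0.23, 0.22 and -0.10 for the 3 members and changed none of their calls. The causes of these shifts were not tested. Depth limits miR-615-3p and miR-196a-5p.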
